A study of Mus musculus with 6 samples.

Results

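The transcripts described here encode 9 liver proteins that move glucose in and out of the hepatocyte and set the direction of carbon flow between glucose and pyruvate: Slc2a2, Gckr, Pfkfb1, Pklr, Pcx, Pck1, Fbp1, Slc37a4 and G6pc. They were found by gene name among the 13273 genes of the table, and all 9 were present and passed the minimum of 0.5 FPKM (fragments per kilobase of transcript and per library depth) as a mean over the livers. Liver RNA came from 3 ETOH-WT mice and 3 PF-WT mice, 1 library per mouse. All were wild type female mice on the C57Bl/6 strain, 2 months old when the diets began. The ETOH-WT mice drank a Lieber–DeCarli liquid diet, a standard model of early alcoholic liver disease, for 3 weeks, and its ethanol (ETOH) content was stepped up to 6.4% v/v. The PF-WT mice were pair-fed (PF) with a calorie-matched version without ETOH. Fresh diet was given each day in the late afternoon, and livers were collected in the morning. The authors' methods give the night feeding of mice as the reason for this timing. Whether food was withdrawn before collection was not given. The labels give one code to the ETOH-WT mice and another to the PF-WT mice, so anything those codes stand for cannot be told apart from the diet.

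The liver takes up glucose after a meal and releases it during fasting. GLUT2, the Slc2a2 product, lets glucose cross the hepatocyte membrane in either direction. Phosphorylation then traps it in the cell as glucose 6-phosphate, a step that the Gckr protein restrains when glucose is low. Glycolysis ends in the pyruvate kinase step (Pklr). Gluconeogenesis bypasses the irreversible steps of glycolysis with pyruvate carboxylase (Pcx), phosphoenolpyruvate carboxykinase (Pck1), fructose-1,6-bisphosphatase (Fbp1) and glucose-6-phosphatase (G6pc), which is fed by the Slc37a4 transporter of the endoplasmic reticulum. The Pfkfb1 enzyme makes and degrades fructose 2,6-bisphosphate, a signal that favours glycolysis and inhibits Fbp1. Ethanol oxidation raises the ratio of NADH to NAD+ in the hepatocyte, which is known to restrain glucose production from lactate. None of these fluxes was measured here, and the values below are transcript levels in whole liver, where fewer cells of a type and less RNA per cell cannot be told apart.

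Of the 9 transcripts, Slc2a2 was higher and Pfkfb1 was lower in ETOH-WT livers, and the other 7 did not pass the test. The test was limma on log2(FPKM + 1), two-sided, with Benjamini-Hochberg adjusted p under 0.05 over the 11346 genes tested. By this rule 6.64% of all tested genes were called, with 3.97% higher and 2.67% lower in ETOH-WT. The 2 calls among 9 transcripts thus stand beside that background of 753 genes, and 9 is too few to read a share from. Without ETOH-WT mouse 3 the count was 0, and without PF-WT mouse 2 it was 1 (Pfkfb1). The values of the ETOH-WT and PF-WT livers did not overlap for 4 of the 9 (Slc2a2, Pfkfb1, Fbp1 and Pcx), and they did not overlap for 29.1% of all tested genes. The median log2 fold change was 0.19 over the 9 transcripts and 0.02 over all tested genes, and the median size of the change regardless of sign was 0.28 over the 9 against 0.15 over all. Between the 5th and the 95th percentile, the changes of all tested genes ran from -0.46 to 0.48, and Slc2a2, Fbp1, Pklr and Pfkfb1 lay outside that range. The 9 were chosen with earlier results of these data known, and the 1 added to FPKM understates changes of low genes. These sizes are therefore not read as an excess over all genes.

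**Figure D1:**
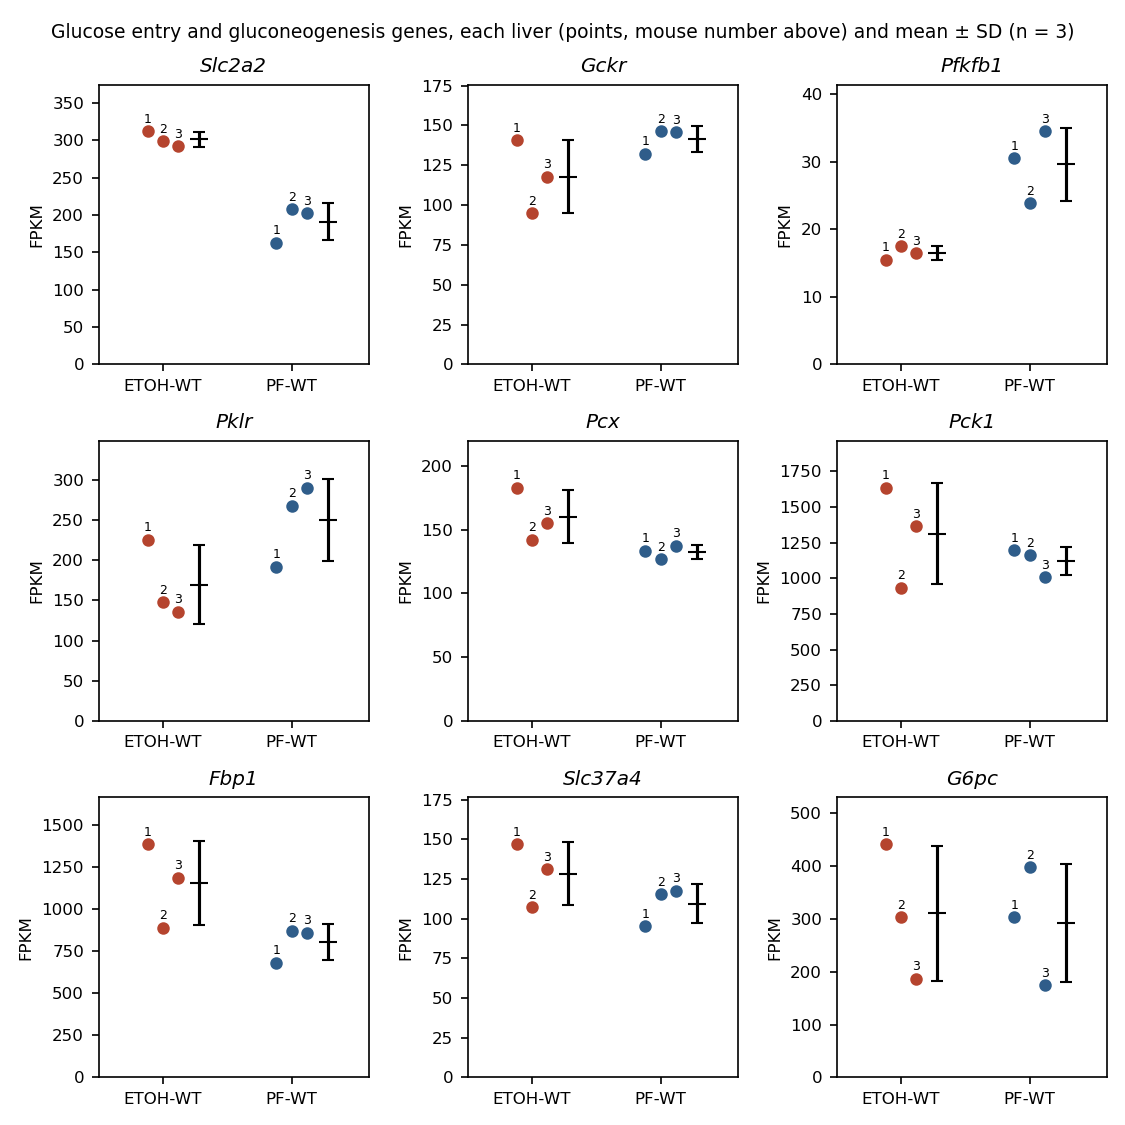
FPKM (vertical axes, from 0) of the 9 transcripts in each liver, with ETOH-WT at the left and PF-WT at the right of each panel. Points are single livers with the mouse number above, and the bars beside them are the mean ± SD (n = 3). The 3 ETOH-WT livers lay above the PF-WT livers for Slc2a2, Pcx and Fbp1 and below them for Pfkfb1, and the diets overlapped in the other 5 panels.

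Slc2a2 (ENSMUSG00000027690, chr3:28697903-28731359, GRCm38) is the glucose entry transporter. Its level was 312, 299 and 293 FPKM in the ETOH-WT livers, against 163, 208 and 203 FPKM in the PF-WT livers. The 3 ETOH-WT livers lay close together and each was above all PF-WT livers, among which mouse 1 was the lowest. The mean was 301 ± 10.1 FPKM in ETOH-WT and 191 ± 24.7 FPKM in PF-WT (SD, n = 3 each), a ratio of 1.58. Its log2 fold change was 0.66 (SE 0.11, 95% interval 0.40 to 0.92; limma adjusted p = 0.0170). Without ETOH-WT mouse 3 the adjusted p was 0.0657 at a log2 fold change of 0.68, and without PF-WT mouse 2 it was 0.0508 at 0.73.

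The 250 bases before the RefSeq start of Slc2a2 are shown because this transcript rose in ETOH-WT livers. They lie on the plus strand at chr3:28697653-28697902 (GRCm38.p6) and are printed in lower case throughout, since none of the motifs searched was found in them.
Slc2a2: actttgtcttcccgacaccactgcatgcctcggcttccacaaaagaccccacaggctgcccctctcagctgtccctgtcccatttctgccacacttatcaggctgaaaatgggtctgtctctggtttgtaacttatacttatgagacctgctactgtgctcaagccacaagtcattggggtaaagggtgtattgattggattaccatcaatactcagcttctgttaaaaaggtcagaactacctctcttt

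Gckr (ENSMUSG00000059434, chr5:31297443-31327314) encodes a regulatory protein that restrains the trapping of glucose. Its level was 141, 94.7 and 118 FPKM in the ETOH-WT livers, against 132, 146 and 146 FPKM in the PF-WT livers. ETOH-WT mouse 1 lay within the PF-WT range and the other two ETOH-WT livers lay below it. The mean was 118 ± 23.1 FPKM in ETOH-WT and 141 ± 7.90 FPKM in PF-WT (SD, n = 3 each), and the log2 fold change of -0.28 (SE 0.14, 95% interval -0.60 to 0.05) did not pass (limma adjusted p = 0.280).

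Pfkfb1 (ENSMUSG00000025271, chrX:150588229-150643878) encodes the liver isoform of 6-phosphofructo-2-kinase/fructose-2,6-bisphosphatase. Its level was 15.5, 17.5 and 16.5 FPKM in the ETOH-WT livers, against 30.5, 23.8 and 34.6 FPKM in the PF-WT livers. Every ETOH-WT liver was below every PF-WT liver, and the PF-WT livers were the more spread. The mean was 16.5 ± 1.02 FPKM in ETOH-WT and 29.6 ± 5.41 FPKM in PF-WT (SD, n = 3 each), a ratio of 0.557. Expressed as a log2 fold change this was -0.79 (SE 0.14, 95% interval -1.11 to -0.48; limma adjusted p = 0.0175), and without ETOH-WT mouse 3 the adjusted p was 0.0706 at a log2 fold change of -0.79. Of its exons, 123 bases are shared with Apex2 on the other strand, and the strand setting of the counting was not given. Apex2 had 2.35, 2.15 and 2.79 FPKM in ETOH-WT livers and 2.82, 2.22 and 2.53 FPKM in PF-WT livers, with a log2 fold change of -0.04 (limma adjusted p = 0.880).

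RefSeq lists 4 starts for Pfkfb1, and values per gene do not tell which of them was used in these livers. The window shown, because this transcript fell in ETOH-WT livers, is the one before the start nearest to that of the table. It lies on the plus strand at chrX:150587993-150588242 (GRCm38.p6) and held none of the motifs searched, whereas another of its windows held matches, given with the motifs of the other promoters.
Pfkfb1: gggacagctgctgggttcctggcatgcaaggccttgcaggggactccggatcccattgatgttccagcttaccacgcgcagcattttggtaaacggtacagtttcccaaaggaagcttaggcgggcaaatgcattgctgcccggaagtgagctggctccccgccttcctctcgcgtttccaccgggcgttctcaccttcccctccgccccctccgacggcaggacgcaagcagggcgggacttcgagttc

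Pklr (ENSMUSG00000041237, chr3:89136142-89146784) encodes the pyruvate kinase of liver and red cells, a textbook target of the glucose-sensing factor ChREBP. Its level was 226, 148 and 136 FPKM in the ETOH-WT livers, against 192, 268 and 291 FPKM in the PF-WT livers. ETOH-WT mouse 1 lay above PF-WT mouse 1, and this was the only overlap, as the other two ETOH-WT livers were below all PF-WT livers. The mean was 169.9 ± 48.7 FPKM in ETOH-WT and 250.2 ± 51.7 FPKM in PF-WT (SD, n = 3 each). The log2 fold change was -0.57 (SE 0.22, 95% interval -1.07 to -0.07), with an unadjusted p of 0.0308 and a limma adjusted p of 0.164, so it did not pass. Hcn3, on the other strand, shares 711 bases, or 22.0%, of the Pklr exons, and it stayed below 0.2 FPKM in every liver.

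The gluconeogenic enzymes did not pass the test. Pcx (ENSMUSG00000024892, chr19:4510472-4621752), whose product turns pyruvate into oxaloacetate in the mitochondrion, had 183, 142 and 155 FPKM in the ETOH-WT livers, against 133, 127 and 137 FPKM in the PF-WT livers. The lowest ETOH-WT liver was above the highest PF-WT liver by a small margin. The mean was 160.0 ± 20.8 FPKM in ETOH-WT and 133 ± 5.29 FPKM in PF-WT (SD, n = 3 each). On the log2 scale the fold change was 0.26 (SE 0.11, 95% interval 0.01 to 0.51; unadjusted p = 0.0412, limma adjusted p = 0.189).

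Pck1 (ENSMUSG00000027513, chr2:173153048-173159273), whose product turns oxaloacetate into phosphoenolpyruvate in the cytosol, was the most abundant of the 9 per length in both diets. Its level was 1635, 935 and 1366 FPKM in the ETOH-WT livers, against 1195, 1163 and 1007 FPKM in the PF-WT livers. ETOH-WT mice 1 and 3 were above all PF-WT livers and ETOH-WT mouse 2 was below all of them. The mean was 1312 ± 353 FPKM in ETOH-WT and 1122 ± 101 FPKM in PF-WT (SD, n = 3 each), with a log2 fold change of 0.19 (SE 0.20; limma adjusted p = 0.606). The 95% interval of the fold ran from 0.831 to 1.57, so folds within that range, a modest decrease or a larger increase, were not excluded by these livers.

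Fbp1 (ENSMUSG00000069805, chr13:62864753-62888282, minus strand) encodes the phosphatase that opposes phosphofructokinase. Its level was 1387, 890.0 and 1187 FPKM in the ETOH-WT livers, against 683, 872 and 861 FPKM in the PF-WT livers. The diets did not overlap, though ETOH-WT mouse 2 was close to the PF-WT livers. The mean was 1155 ± 250.2 FPKM in ETOH-WT and 805 ± 106 FPKM in PF-WT (SD, n = 3 each). The log2 fold change was 0.50 (SE 0.18, 95% interval 0.09 to 0.92), with an unadjusted p of 0.0226 and a limma adjusted p of 0.139. Without ETOH-WT mouse 2 it was 0.68 with an adjusted p of 0.0478.

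Slc37a4 (ENSMUSG00000032114, chr9:44398176-44402963) encodes the transporter that carries glucose 6-phosphate into the endoplasmic reticulum, where G6pc acts. It had 147, 107 and 131 FPKM in the ETOH-WT livers, against 95.2, 115 and 118 FPKM in the PF-WT livers. ETOH-WT mouse 2 fell within the PF-WT range, and the other two ETOH-WT livers lay above it. The mean was 128 ± 20.0 FPKM in ETOH-WT and 109 ± 12.4 FPKM in PF-WT (SD, n = 3 each). The log2 fold change of 0.22 (SE 0.14, 95% interval -0.09 to 0.54) did not pass (limma adjusted p = 0.366).

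G6pc (ENSMUSG00000078650, chr11:101367561-101377903) encodes the catalytic subunit of glucose-6-phosphatase, which frees glucose for release. Its level was 441, 302 and 187 FPKM in the ETOH-WT livers, against 303, 397 and 175 FPKM in the PF-WT livers. It varied more between mice on one diet than any other of the 9 transcripts, with a highest-to-lowest ratio of 2.36 in ETOH-WT and 2.27 in PF-WT. The mean was 309.9 ± 127 FPKM in ETOH-WT and 291 ± 112 FPKM in PF-WT (SD, n = 3 each). The log2 fold change was 0.08 (SE 0.36; limma adjusted p = 0.919), and it turned to -0.21 without ETOH-WT mouse 1 and to -0.25 without PF-WT mouse 3. The 95% interval of the fold, 0.595 to 1.88, was the widest of the 9.

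**Figure D2:**
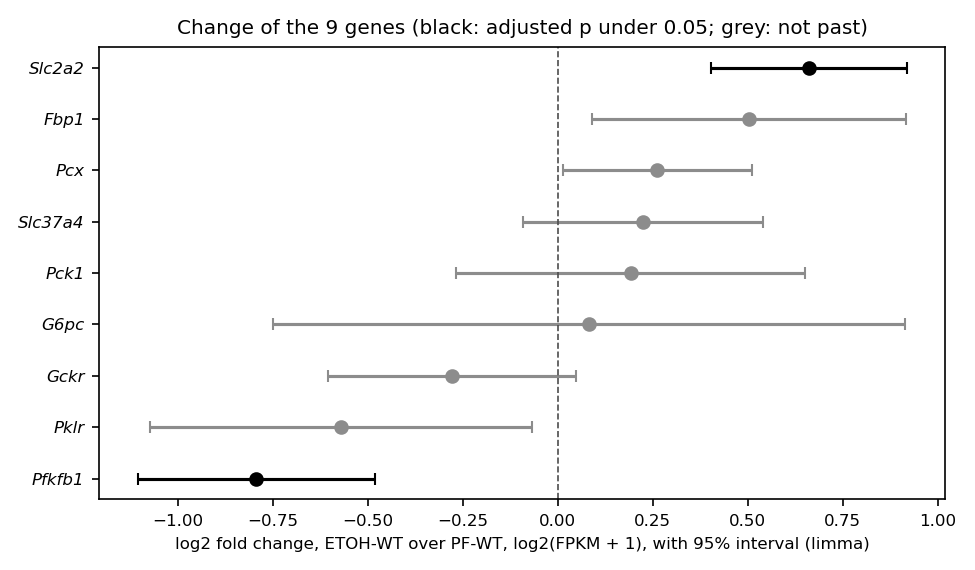
Log2 fold change of ETOH-WT over PF-WT on the log2(FPKM + 1) scale (horizontal axis) for the 9 transcripts, with the limma 95% interval as the bar. Slc2a2 at 0.66 and Pfkfb1 at -0.79, in black, passed the test. The intervals of Fbp1, Pcx and Pklr, in grey, lie to one side of 0 although their adjusted p did not pass.

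Short stretches of 30 bases with a motif in capitals are shown for 4 of the transcripts, as examples from glucose trapping, glycolysis and glucose production. Further matches in these and other promoters are given by position only. The letters searched on both strands of the 250 bases before each RefSeq start (GRCm38.p6) were CACGTG (E-box), TGACGTCA and TGACGCAA (cAMP response element), TGTTTAC (forkhead factors), CAAAGTCCA (HNF4), TTGCGCAA (C/EBP), GTTAAT (an arm of the HNF1 palindrome) and TATAAA (the box bound by the basal factor TBP). A second forkhead form, TGTTTGC, was searched as well. TTACGTCA, the form of the cAMP response element known from the rat Pck1 promoter, was added after the mouse sequence had been read. The stretches lie on the plus strand at chr2:173152969-173152998 (Pck1), chr11:101367564-101367593 (G6pc, forkhead), chr11:101367675-101367704 (G6pc, TATA box), chr5:31297492-31297521 (Gckr) and chr3:89136580-89136609 (Pklr, the second of its RefSeq starts).
Pck1, cAMP response element: aggcctgccccTTACGTCAgaggcgagcct
G6pc, forkhead: caccctgaacaTGTTTGCatcaacctactg
G6pc, TATA box: gaatccagggcaTATAAAacaggggcaagg
Gckr, HNF1 arm: cagggttcttagGTTAATcatctccatggc
Pklr, TATA box: acaaaggcagagTATAAAgcagacccacag

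The motifs began 93 bases (Pck1), 141 and 29 bases (G6pc), 59 bases (Gckr) and 31 bases (Pklr) before the RefSeq start, and no 2 matches overlapped. For G6pc, Gckr and Pklr that start lies inside the gene span printed above, and so do their stretches. Values per gene do not tell which start was used in these livers. Among all 32851 promoters of the RefSeq table, 0.447% held TTACGTCA, 4.30% held TGTTTGC, 6.43% held GTTAAT and 12.4% held TATAAA. These matches are descriptions of letters, not of binding. Only exact letters were searched, so a window without a match may still hold a site in another form. Imperfect forms of the E-box, for one, were not searched before Pklr or any other of the 9. The 9 transcripts had 16 such windows in all, since some have several starts, and those of Fbp1 and Slc2a2 held none of the letters. The other matches began, counted from the start, at -192 (Pck1, HNF1 arm), -221 (G6pc, HNF1 arm), -248 (Pcx, E-box, first start) and -32 (Slc37a4, TATAAA, the last of its starts). Pfkfb1 held TATAAA at -193 and an HNF1 arm at -114 in the window of its RefSeq start at chrX:150589916, which is not printed. Matches thus stood before transcripts that passed the test and before transcripts that did not.

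Per length, the 9 transcripts fell into the same broad order in both diets, with Pck1 first, then Fbp1, then G6pc, and Pfkfb1 last by mean FPKM. In ETOH-WT livers Slc2a2 came next after G6pc and lay above Pklr without overlap (lowest Slc2a2 value 293 FPKM, highest Pklr value 226 FPKM). In PF-WT livers Pklr came next after G6pc and overlapped with Slc2a2, which followed it. Pck1 and Fbp1 overlapped in ETOH-WT livers and did not in PF-WT livers. From Pklr down to Gckr, the neighbours Pklr, Pcx, Slc37a4 and Gckr all overlapped in ETOH-WT livers. Pfkfb1 was below Gckr, the next lowest, in every ETOH-WT liver, and below Slc37a4, the next lowest, in every PF-WT liver.

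Ratios taken within a liver cancel whatever scales all its transcripts together, and they are given as descriptions with no test. Pck1 to Pklr was 7.25, 6.33 and 10.0 in the ETOH-WT livers, against 6.22, 4.34 and 3.47 in the PF-WT livers. The diets did not overlap, although the lowest ETOH-WT liver and the highest PF-WT liver were nearly level. G6pc to Pklr was 1.95, 2.05 and 1.37 in ETOH-WT livers, against 1.58, 1.48 and 0.601 in PF-WT livers, and here the diets overlapped. The next 2 ratios were chosen after the values had been seen. Slc2a2 to Pklr was 1.38, 2.02 and 2.15 in ETOH-WT livers, against 0.848, 0.777 and 0.697 in PF-WT livers. Fbp1 to Pfkfb1 was 89.5, 50.7 and 72.1 in ETOH-WT livers, against 22.4, 36.6 and 24.9 in PF-WT livers. In both, every ETOH-WT liver was above every PF-WT liver. For Fbp1 to Pfkfb1 this follows from the choice, since Fbp1 was higher and Pfkfb1 lower in every ETOH-WT liver.

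**Figure D3:**
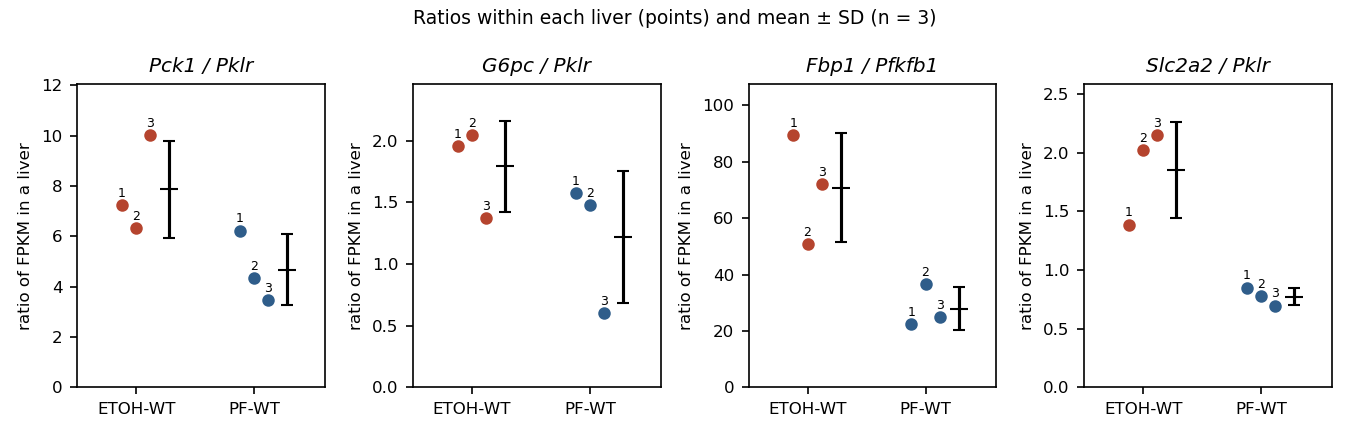
Ratio of the FPKM of 2 transcripts within each liver (vertical axes, from 0), with ETOH-WT at the left and PF-WT at the right. Points are livers with the mouse number, bars the mean ± SD (n = 3). Pck1 to Pklr, Fbp1 to Pfkfb1 and Slc2a2 to Pklr were higher in all ETOH-WT livers than in any PF-WT liver, and G6pc to Pklr overlapped. Fbp1 to Pfkfb1 and Slc2a2 to Pklr were chosen after the values had been seen, and the separation of Fbp1 to Pfkfb1 follows from that choice.

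ETOH-WT mouse 1 was the highest of its diet for 8 of the 9 transcripts, all but Pfkfb1. This library also had the largest sum of FPKM, 625003 against 567808 to 584620 in the other 5, and no gene listed at 0 where the others had 86 to 163. Its lowest value was 0.0867 FPKM, while the lowest values above 0 in the other 5 were at most 1.45e-53 FPKM. Whether genes near 0 in ETOH-WT mouse 1 were left out of the table before deposit was not stated and was not tested. Counts and shares over all tested genes cover the listed genes only. After median-ratio scaling ETOH-WT mouse 1 was still the highest of its diet for 8 of the 9. Without it, the log2 fold change of Slc2a2 was 0.63 and that of Pfkfb1 was -0.75, with limma adjusted p of 0.0468 and 0.0477. Total counts per library are not among the values analyzed here. From the steps between low values, the depth relative to ETOH-WT mouse 2 was estimated at 1.05 to 1.43 for the other ETOH-WT libraries and at 1.06 to 1.57 for the PF-WT libraries.

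Of 24 isozymes and paralogs of these proteins, 17 were tested, of which Pck2 was higher, Slc2a4 was lower and 15 did not pass, with a median log2 fold change of -0.07. Pck2, the mitochondrial counterpart of Pck1, had 3.79, 3.40 and 2.76 FPKM in ETOH-WT livers, against 1.90, 2.22 and 1.55 FPKM in PF-WT livers. The diets did not overlap, and the log2 fold change was 0.58 (SE 0.13; limma adjusted p = 0.0441). Leaving out any of the 6 livers took the adjusted p of Pck2 over the threshold, to between 0.0733 and 0.106. Slc2a4, the insulin-responsive glucose transporter GLUT4 of muscle and fat, was low in all livers, with 0.666, 0.251 and 0.303 FPKM in ETOH-WT and 1.26, 3.30 and 4.24 FPKM in PF-WT. Its log2 fold change was -1.41 (SE 0.29; limma adjusted p = 0.0306), and the call was lost without PF-WT mouse 2 (adjusted p = 0.115, the highest), PF-WT mouse 3, ETOH-WT mouse 2 or ETOH-WT mouse 3.

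Among glycolytic enzymes and the reversible steps shared with gluconeogenesis, only Aldoa passed the test. Of 16 genes tested, 13 had a positive log2 fold change, the median was 0.22, 1 was called higher and none lower, and 6 had an unadjusted p under 0.05. The shares of all tested genes with a positive change or an unadjusted p under 0.05 are not given here. No excess is therefore read from such counts in this list or in those below. Aldoa, an aldolase of muscle and most tissues, had 80.5, 74.8 and 81.6 FPKM in ETOH-WT livers, against 52.1, 55.9 and 53.8 FPKM in PF-WT livers, a log2 fold change of 0.54 (SE 0.08; limma adjusted p = 0.0109). It was over the threshold without PF-WT mouse 2 or without ETOH-WT mouse 3, at no more than 0.0575. Fructose and sorbitol entry had no call by limma among 7 genes, with 2 at an unadjusted p under 0.05.

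Genes that supply carbon for glucose synthesis showed 1 call in each direction among 24 tested, with a median log2 fold change of 0.01. Gpd1, which interconverts glycerol 3-phosphate and dihydroxyacetone phosphate using NAD+ and NADH, had 239, 247 and 223 FPKM in ETOH-WT livers, against 152, 121 and 140.5 FPKM in PF-WT livers. The diets were well apart, the log2 fold change was 0.78 (SE 0.11; limma adjusted p = 0.00830), and the call held with any 1 liver left out. Sds, the serine dehydratase that makes pyruvate from serine, had 184, 142 and 132 FPKM in ETOH-WT livers, against 214, 281 and 266 FPKM in PF-WT livers. Its log2 fold change was -0.73 (SE 0.15; limma adjusted p = 0.0310), and the call was lost without the same 4 livers, with a highest adjusted p of 0.125 without PF-WT mouse 2.

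Glycogen genes, which draw on the same glucose 6-phosphate, had 4 higher and 1 lower of 20 tested, with a median log2 fold change of -0.04. Stbd1, a protein that tethers glycogen to membranes, had 80.8, 106 and 77.9 FPKM in ETOH-WT livers, against 40.9, 37.7 and 39.4 FPKM in PF-WT livers (log2 fold change 1.13, SE 0.12; limma adjusted p = 0.00444). Ugp2, which makes the UDP-glucose that glycogen is built from, had a log2 fold change of 0.77 (SE 0.14; limma adjusted p = 0.0225). Ppp1r3g, a subunit that targets protein phosphatase 1 to glycogen, had 5.51, 3.15 and 1.21 FPKM in ETOH-WT livers, against 18.1, 13.9 and 19.1 FPKM in PF-WT livers. Its log2 fold change of -2.19 (SE 0.34; limma adjusted p = 0.0130) was the most negative of all list genes tested. The calls of Stbd1 and Ppp1r3g held with any 1 liver left out, and that of Ugp2 was lost without PF-WT mouse 2, ETOH-WT mouse 1 or ETOH-WT mouse 3, at no more than 0.0983. Ppp1r3e, another such subunit, and Gaa, the lysosomal glycogen-degrading enzyme, were the remaining calls at 0.44 and 0.38 (limma adjusted p = 0.0438 and 0.0299), and the highest adjusted p with 1 liver left out was 0.122 and 0.138. Leaving out any of the 6 livers took Ppp1r3e over the threshold, and Gaa was so in all but the fit without ETOH-WT mouse 2. Under median-ratio scaling 3 of the 20 were called (Stbd1, Ugp2 and Ppp1r3g).

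**Figure D4:**
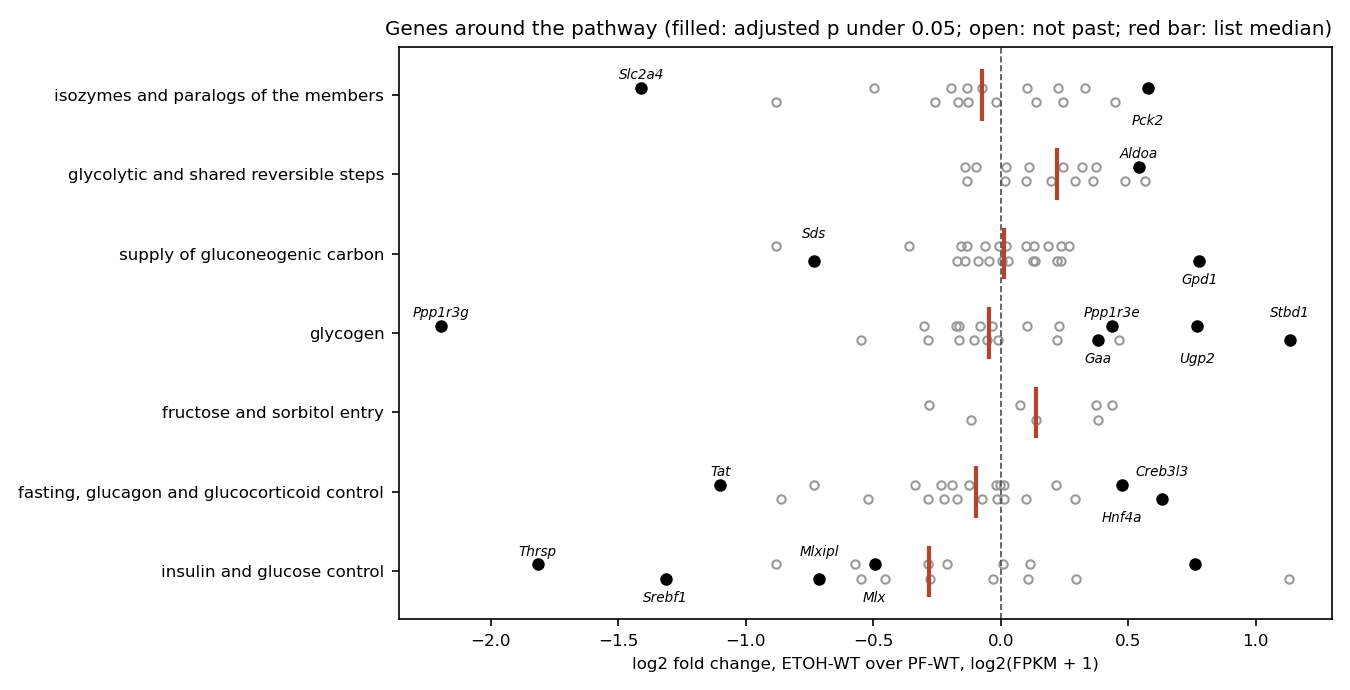
Log2 fold change of ETOH-WT over PF-WT on the log2(FPKM + 1) scale (horizontal axis) for each tested gene of 7 lists around the pathway. Filled points passed the limma test, open points did not, and red bars are list medians, which run from -0.28 for insulin and glucose control to 0.22 for glycolytic and shared reversible steps.

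Among regulators of the fasting response (glucagon, glucocorticoid and their factors), 2 of 22 tested were higher, 1 was lower and 19 did not pass, with a median log2 fold change of -0.10. Hnf4a, a nuclear receptor that drives liver genes including gluconeogenic ones, had 155, 158 and 157 FPKM in ETOH-WT livers, against 113, 110.5 and 114 FPKM in PF-WT livers. Its livers were nearly level within a diet, and its log2 fold change was 0.48 (SE 0.07; limma adjusted p = 0.0130). Creb3l3, a fasting-induced factor of the liver, had 153, 134 and 138 FPKM in ETOH-WT livers, against 100.2, 91.4 and 81.7 FPKM in PF-WT livers (log2 fold change 0.63, SE 0.10; limma adjusted p = 0.0151). Tat, a tyrosine aminotransferase induced by glucocorticoids and glucagon, had 551, 441 and 563 FPKM in ETOH-WT livers, against 974, 1081 and 1286 FPKM in PF-WT livers. Every ETOH-WT liver was far below every PF-WT liver, the log2 fold change was -1.10 (SE 0.14; limma adjusted p = 0.00762), and the call held with any 1 liver left out. Those of Hnf4a and Creb3l3 were over the threshold without PF-WT mouse 2 or without ETOH-WT mouse 3, at no more than 0.0812 and 0.0714. Ppargc1a, a coactivator of gluconeogenic genes, had a log2 fold change of 0.22 (limma adjusted p = 0.360), Foxo1, an activator of G6pc and Pck1, had 0.29 (0.455), and Igfbp1, a textbook insulin-repressed gene, had -0.86 (0.0669), so none of these passed.

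Genes of insulin and glucose control, a list that also holds Gckr and Pklr, had 1 higher and 4 lower of 18 tested, with a median log2 fold change of -0.28. Mlxipl, which encodes ChREBP, had 121, 94.2 and 86.0 FPKM in ETOH-WT livers, against 161, 172 and 157 FPKM in PF-WT livers (log2 fold change -0.71, SE 0.13; limma adjusted p = 0.0208). Srebf1, which encodes the insulin-induced lipogenic factor SREBP1, had 106, 77.6 and 48.9 FPKM in ETOH-WT livers, against 187, 204 and 168 FPKM in PF-WT livers (log2 fold change -1.31, SE 0.24; limma adjusted p = 0.0227). In both genes the diets did not overlap. Thrsp, a lipogenic gene under both factors, had a log2 fold change of -1.82 (SE 0.33; limma adjusted p = 0.0212), and Mlx, the partner of ChREBP, had -0.50 (SE 0.10; limma adjusted p = 0.0286). These 4 calls were lost without PF-WT mouse 2, with adjusted p of 0.0934 for Mlxipl, 0.0917 for Srebf1, 0.0870 for Thrsp and 0.124 for Mlx. Other livers whose removal lost a call were ETOH-WT mouse 3 for Mlxipl and Thrsp, ETOH-WT mouse 2 for Thrsp and Mlx, PF-WT mouse 1 for Srebf1 and Mlx, and PF-WT mouse 3 and ETOH-WT mouse 1 for Mlx.

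**Figure D5:**
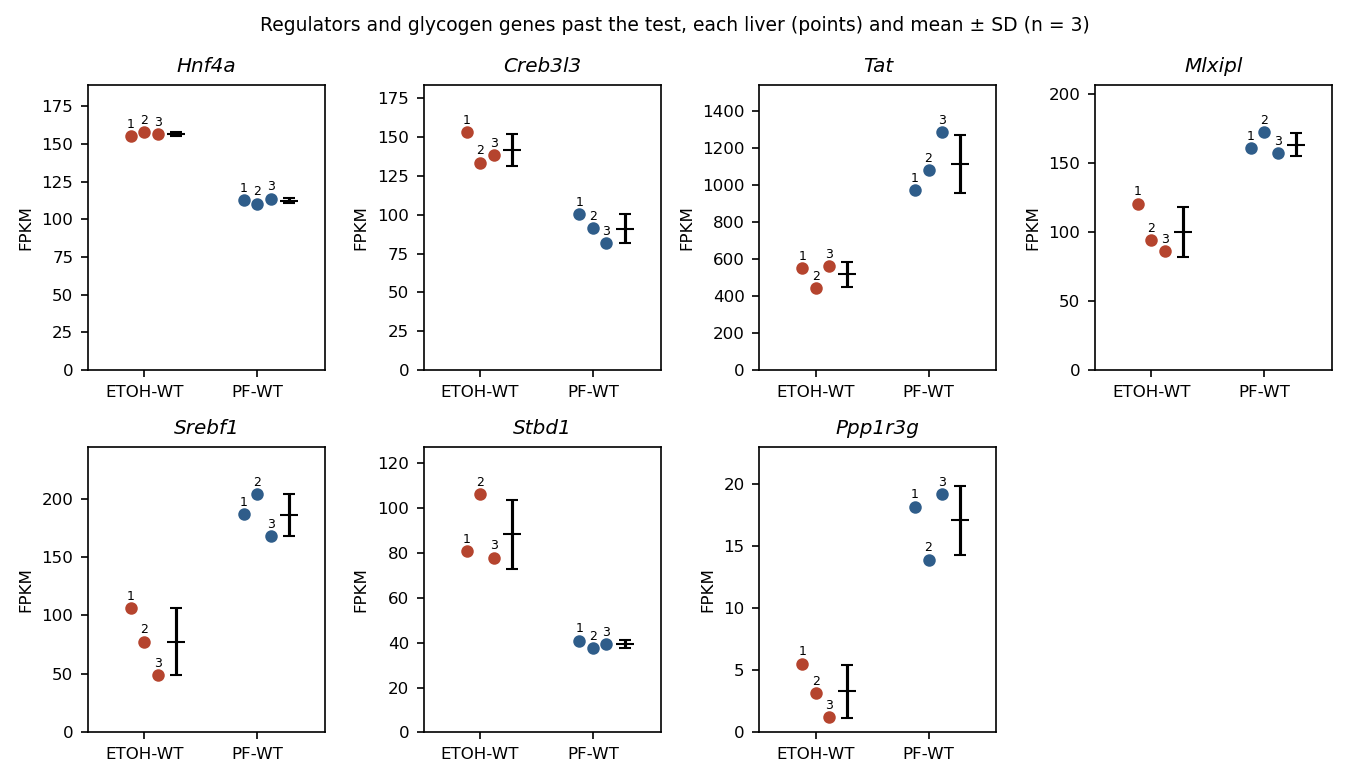
FPKM (vertical axes, from 0) of 7 regulators and glycogen genes that passed the limma test, with ETOH-WT at the left and PF-WT at the right of each panel. Points are livers with the mouse number, bars the mean ± SD (n = 3). Hnf4a, Creb3l3 and Stbd1 were higher and Tat, Mlxipl, Srebf1 and Ppp1r3g lower in every ETOH-WT liver than in any PF-WT liver.

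Gluconeogenesis is stronger in periportal and glycolysis in pericentral hepatocytes, so the zone markers were read beside these transcripts. Of 10 periportal markers 1 was higher and 2 were lower, and their summed level was 1908 to 2323 FPKM in ETOH-WT livers and 1879 to 2579 FPKM in PF-WT livers. Of 11 pericentral markers 2 were higher and 1 was lower, with sums of 5530 to 5703 FPKM in ETOH-WT livers and 5099 to 6836 FPKM in PF-WT livers. Both sums overlapped between the diets. The pericentral sum was 68.8% Cyp2e1 in ETOH-WT livers and 58.2% in PF-WT livers. Without Cyp2e1 it was 1621 to 1938 FPKM in ETOH-WT livers and 2344 to 2561 FPKM in PF-WT livers, without overlap. Rgn, with means of 458 FPKM in ETOH-WT and 1215 FPKM in PF-WT, carried this gap. The median log2 fold change of the 11 pericentral markers was -0.05. Slc1a2 (log2 fold change 0.80; limma adjusted p = 0.0131) and Cyp1a2 (0.83; 0.0175) were the pericentral markers called higher. In the periportal list, Hsd17b13 (0.86; 0.0206) was higher, and Ctsc (-0.53; 0.0353) and Sds were lower. Each of these calls was lost without PF-WT mouse 2, and for Cyp1a2 this was the only such liver. Those of Slc1a2 and Hsd17b13 were also lost without ETOH-WT mouse 3, and that of Hsd17b13 without ETOH-WT mouse 1. The Ctsc call held only in the fit without PF-WT mouse 3, and the livers for Sds are given above. The pericentral marker called lower was Rgn, with 321, 691 and 362 FPKM in ETOH-WT livers, against 1244, 1232 and 1168 FPKM in PF-WT livers (log2 fold change -1.49, SE 0.26; limma adjusted p = 0.0187), named after its values were seen. Its call was lost without PF-WT mouse 2 or without ETOH-WT mouse 3, at no more than 0.0757. Hepatocyte markers were abundant, with 7 of 8 found by name (all but Tf, for which no other name was searched). They summed to 63579 to 69110 FPKM in ETOH-WT livers and 71862 to 81274 FPKM in PF-WT livers, without overlap. However, none of the 7 was called by limma and 1 had an unadjusted p under 0.05. Alb made up 75.6% of this sum in ETOH-WT livers and 74.8% in PF-WT livers, and without it the sum was 15246 to 16626 FPKM in ETOH-WT livers and 17893 to 21172 FPKM in PF-WT livers, again without overlap. Of the 7, Apob alone had a positive log2 fold change (0.09; limma adjusted p = 0.720). The part of these lower sums in the results above was not tested. Kupffer cell, endothelial, stellate cell, cholangiocyte and erythroid markers had no call by limma. At an unadjusted p under 0.05 were 0 of 7, 0 of 6, 2 of 7, 1 of 3 and 2 of 5 tested genes, all of them lower in ETOH-WT. The log2 fold change was positive for 1, 2, 2, 0 and 0 of these tested genes.

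For the 2 transcripts with the largest changes, the genes of most similar pattern were listed by Pearson's r of log2(FPKM + 1) over the 6 livers, as a description with no test, since the diets differ and all genes of a liver share its library. For Slc2a2 they were Nup62cl (r = 0.999), Pafah1b2 (0.997) and Cacul1 (0.996). Of these, Pafah1b2 (log2 fold change 0.28; limma adjusted p = 0.103) and Cacul1 (0.25; 0.135) did not pass the test. Nup62cl had 2.57, 2.34 and 2.40 FPKM in ETOH-WT livers, against 0.397, 1.00 and 0.914 FPKM in PF-WT livers (log2 fold change 0.97; limma adjusted p = 0.0125), with PF-WT mouse 1 lowest, as for Slc2a2. For Pfkfb1 they were Ces1b (r = 0.994), Ptk6 (0.993) and Slc25a45 (0.988). Since the genes listed for both were picked for the highest r among all tested genes, a like diet difference and order of mice follow largely from that choice. Ptk6 was low, at 0.142 to 1.15 FPKM. Ces1b, a carboxylesterase, had 25.7, 26.4 and 25.0 FPKM in ETOH-WT livers, against 34.6, 30.6 and 37.4 FPKM in PF-WT livers (log2 fold change -0.40; limma adjusted p = 0.0481), in the same order of mice as Pfkfb1 within PF-WT. Ptk6 (log2 fold change -0.66; limma adjusted p = 0.0227) and Slc25a45 (-0.45; 0.0258) passed as well.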

How the data were processed

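The authors deposited 1 table of FPKM, with 1 value per gene and liver, made before deposit by a program that was not stated. Its header names no unit, and FPKM was inferred because the values are not whole and stand beside locus columns. The authors' methods state that STAR, GRCm38, HTSeq-count and DESeq2 were used by the authors. Other tools stand in the processing notes of the submitters (TopHat2 2.0.11, cutadapt, HTSeq 1.6.3 and 0.11.2). Count tests could not be applied to FPKM. For repeated gene names, the entry of higher mean was taken.

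Genes averaging 0.5 FPKM or more were tested with limma 3.58.1 in R 4.3.3 on log2(FPKM + 1), with a variance trend and a diet term alone, leaving 4 residual degrees of freedom, and p-values were adjusted over all 11346 genes. This pseudocount understates changes of low genes. An exact test of 3 livers against 3 cannot go below 0.1, so none was run. The procedure was also run on simulated livers with noise drawn separately for each gene. Effects shared by a whole library were not simulated, and the outcome is not given here. RefSeq promoter sequences and their starts are on GRCm38.p6.

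The transcripts and lists were chosen with earlier results of these data known. Some genes that the naming rule takes are not reported here. Named genes were the 9 transcripts, Pck2, up to 3 highest and 3 lowest called genes of each list, and for the 2 largest changes the 3 most correlated genes. Gaa, Mlx, Foxo1, Igfbp1, Ppargc1a, Apex2, Hcn3, Rgn, Slc1a2, Cyp1a2, Hsd17b13 and Ctsc were named after their values were seen. Alternatives were pseudocounts of 0.1 and 2, no filter, a mean of at least 1 FPKM, median-ratio scaling, quantile normalization, no variance trend, array weights, a replicate block and each liver left out.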

Additional observations from a re-analysis of the deposited data

How the results depend on the processing

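Of the 9 transcripts, 2 were called under each of pseudocounts of 0.1 and 2, no filter, a mean of at least 1 FPKM, median-ratio scaling, quantile normalization and no variance trend. With array weights 5 were called, since Fbp1 (log2 fold change 0.49), Pcx (0.30) and Pklr (-0.73) passed too. With these weights G6pc turned to -0.48 without passing. The same weights raised the calls over all genes from 753 to 2272. The further calls are therefore not read as particular to these transcripts. With 1 liver left out 0 to 3 of the 9 were called. In those fits the log2 fold change ran from 0.55 to 0.73 for Slc2a2, from -0.94 to -0.68 for Pfkfb1, from 0.36 to 0.68 for Fbp1 and from -0.25 to 0.40 for G6pc. Over all genes, 450 were called higher and 303 lower, 59.8% of the calls being higher, whereas median-ratio scaling gave 328 and 331, or 49.8%, while the median change over all genes moved by only -0.03. Quantile normalization gave 386 higher and 351 lower. Array weights called 2272 genes (1327 higher, 945 lower). With 1 liver left out, 159 to 647 genes were called, 83 to 347 higher and 76 to 300 lower, with the fewest without PF-WT mouse 2. Calls in the lists then ran from 0 to 1 for isozymes, 0 to 1 for glycolytic steps, 1 to 3 for carbon supply, 2 to 4 for glycogen, 1 to 4 for fasting control and 0 to 5 for insulin and glucose control, and median-ratio scaling called 3 glycogen genes. The cause of these shifts was not tested, beyond the smaller number of livers where 1 was left out.

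Both diets carry replicate numbers 1 to 3, but deviations of same-numbered livers correlated at -0.01, -0.02 and -0.03 across genes, so the numbers were not taken as pairs. With the replicate number as a block, 454 genes were called (253 higher, 201 lower), and Slc2a2 and Pfkfb1 passed with adjusted p of 0.0457 and 0.0413. As values are FPKM without counts, their counting error is unknown, which limits low transcripts such as Slc2a4 most.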
